A study of Mus musculus with 10 samples.

Results

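Klf3, Klf4, Klf6, Klf7, Klf10 and Klf13 encode Kruppel-like factors, and all 6 were described here in cultured mouse CD8+ T cells with and without N-acetylcysteine (NAC). They were the rows of the deposited expression table that carry these symbols, 6 of 21898 genes, and all 6 had enough reads to be tested. The libraries are bulk RNA sequencing of CD8+ T cells selected from the spleen of wild-type mice and cultured for 5 days. The treated cells had 10 mM NAC in the medium, a thiol that supplies cysteine for glutathione synthesis, and the control cells had normal medium without the agent. Each group had 5 libraries, numbered 1 to 5, with 13298108 to 17706439 reads per library. Whether the libraries of a group came from different mice or cultures is not given by the labels, and the p-values speak only of library-to-library spread, which could be technical. In bulk RNA, fewer cells of a type and less RNA per cell cannot be told apart.

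Kruppel-like factors bind GC-rich and CACCC sequences in promoters through zinc fingers at the end of the protein, and differ in the rest of the protein, which recruits activators or repressors. KLF6, KLF7 and KLF4 act mainly as activators and KLF4 also as a repressor. KLF3 represses through the corepressor CtBP, and KLF10 and KLF13 carry a domain that binds the corepressor Sin3. In lymphocytes the best known member is KLF2, which keeps cells quiescent and drives genes of lymphoid homing such as S1pr1.

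The libraries of both groups fell into 2 sets, and these sets went against the label in part. The first principal component, with 50.8% of the variance, put libraries 1 and 2 of both groups on one side and libraries 3 to 5 on the other. The 4 markers of CD4 T cells (Cd4, Zbtb7b, Cd40lg and Foxp3) summed to 604 to 659 CPM (read counts scaled to library size after TMM) in NAC and 625 to 643 CPM in control in libraries 1 and 2. In libraries 3 to 5 they summed to 31.2 to 34.9 CPM in NAC and 20.4 to 23.1 CPM in control. The CD8 co-receptor genes were lower in libraries 1 and 2, where Cd8a was at 238 and 271 CPM in NAC and 202 and 213 CPM in control, below Cd4 at 486 and 521 CPM in NAC and 467 and 465 CPM in control. Cd8a in libraries 3 to 5 was at 650 to 667 CPM in NAC and 488 to 522 CPM in control, and Cd4 at no more than 2.76 CPM. Cd8b1 was at 128 to 148 CPM in NAC and 83.9 to 84.3 CPM in control in libraries 1 and 2, against 369 to 413 CPM in NAC and 282 to 291 CPM in control in libraries 3 to 5. The other 5 genes of the CD8 T cell list, Cd3e, Cd3d, Cd3g, Cd2 and Lck, are shared by all T cells. The summed list of 7 was at 1903 to 2102 CPM in NAC and 1450 to 1497 CPM in control in libraries 1 and 2, against 2556 to 2729 CPM in NAC and 2133 to 2159 CPM in control in libraries 3 to 5. The summed levels of the 7 macrophage and monocyte markers stayed between 11.4 and 19.3 CPM in all libraries, but single genes moved in opposite directions. In libraries 1 and 2 Cd68 was at 10.4 and 11.5 CPM in NAC and 5.82 and 6.19 CPM in control. Mpeg1 was there at 0.457 and 0 CPM in NAC and 4.98 and 6.67 CPM in control. In libraries 3 to 5 Cd68 made up most of the sum. The neutrophil genes S100a8, S100a9 and Csf3r were at 0 throughout, and Mmp9 was at no more than 0.197 CPM. The endothelial and T cell gene Pecam1 made up nearly all of the sum of 3 stromal markers, which was 56.8 to 68.6 CPM in NAC and 28.6 to 33.2 CPM in control in libraries 1 and 2, and 104 to 110.3 CPM in NAC and 61.8 to 64.6 CPM in control in libraries 3 to 5. The 6 B cell markers summed to 10.8 to 13.5 CPM in NAC and 2.32 to 8.82 CPM in control, most of it Cd79b. Over all libraries the 3 NK cell markers summed to 30.4 to 55.7 CPM, nearly all of it Eomes. The 5 dendritic cell markers summed to 4.90 to 18.3 CPM and the 4 erythroid and platelet markers to 1.19 to 6.24 CPM. The part of these markers in the results was not tested. The values of the 6 genes are given over all libraries and in each set.

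Of the 6 genes, Klf6 and Klf4 were lower with NAC in both library sets, by 2.40-fold and 2.29-fold in libraries 1 and 2 and by 1.62-fold and 1.60-fold in libraries 3 to 5. Klf3 fell 1.86-fold in libraries 1 and 2 and did not pass the test in libraries 3 to 5. Klf13 rose 1.47-fold in libraries 1 and 2, and Klf7 rose 1.31-fold in libraries 3 to 5. Klf10 passed in neither set. In edgeR's quasi-likelihood test with Benjamini-Hochberg adjustment over all 11403 genes tested, at a threshold of 0.05, 1 of the 6 passed over all libraries and was lower, beside 11.6% of all genes (6.69% higher, 4.88% lower). In libraries 1 and 2 the count was 4 of 6 (3 lower, 1 higher), beside 60.5% of all genes (28.3% lower, 32.2% higher), and in libraries 3 to 5 it was 3 of 6 (2 lower, 1 higher), beside 29.0% (14.0% lower, 15.0% higher). The median log2 change of the 6 genes was -0.09 over all libraries, -0.61 in libraries 1 and 2 and 0.16 in libraries 3 to 5. Over all genes tested these medians were 0.012, 0.042 and 0.0041.

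**Figure D1:**
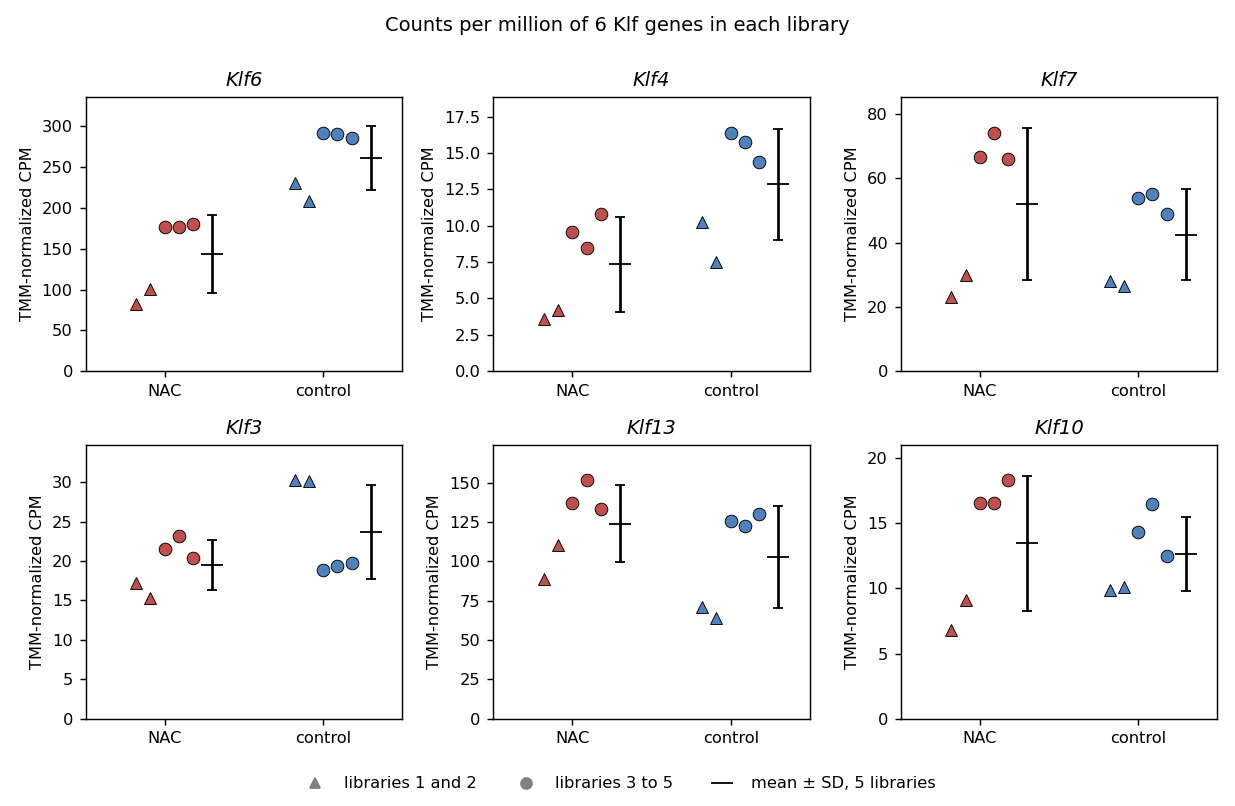
CPM after TMM scaling of each gene (y axis, from 0) in the NAC and control libraries, with triangles for libraries 1 and 2, circles for libraries 3 to 5, and a bar for the mean ± SD of 5 libraries. NAC and control do not overlap for Klf6, and for Klf3 the control triangles at 30.1 and 30.2 CPM lie above every other library.

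Klf6 encodes an activator induced early after many stimuli, known in human tumours as a suppressor of growth that turns on the cell cycle inhibitor gene CDKN1A. Its level was 82.4, 100.5, 177, 176 and 181 CPM in NAC libraries 1 to 5, against 230.3, 209, 292, 290.1 and 285 CPM in control libraries 1 to 5. Every NAC library lay below every control library, and within each group libraries 1 and 2 were the lower pair. NAC and control did not overlap for 16.4% of all genes tested. The mean was 143 ± 47.9 CPM with NAC and 261 ± 39.0 CPM in control (SD, n = 5 each), a log2 change of -0.87 ± 0.23 (SE; edgeR adjusted p = 0.0340).

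That all-library call was a narrow pass. It ended without control 1, 3, 4 or 5 or without NAC 2, with adjusted p from 0.0584 to 0.0733 and log2 changes of -0.91 to -0.76. Within the sets the log2 change of Klf6 was -1.26 ± 0.09 in libraries 1 and 2 (SE; edgeR adjusted p = 1.22e-07), against -0.70 ± 0.07 for libraries 3 to 5 (adjusted p = 1.6e-05). The change in libraries 1 and 2 minus that in libraries 3 to 5 was -0.56 ± 0.11, and the interaction test called it (adjusted p = 0.00144). Interaction calls were made for 41.9% of all genes.

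Klf4, a factor used to reprogram cells to pluripotency, restrains proliferation of mouse CD8+ T cells downstream of the transcription factor ELF4. It was far less abundant than Klf6, at 3.59, 4.18, 9.61, 8.49 and 10.8 CPM in NAC libraries 1 to 5 and 10.2, 7.52, 16.4, 15.8 and 14.4 CPM in control libraries 1 to 5. The groups did not overlap within either set, as for 74.1% of all genes in libraries 1 and 2 and 54.6% in libraries 3 to 5. Over all libraries they did overlap, because NAC libraries 3 to 5 reached the level of control libraries 1 and 2. The reads behind these values ranged from 55 in NAC 1 to 260 in control 4.

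Over all libraries Klf4 had a log2 change of -0.81 ± 0.34 and did not pass (SE; edgeR adjusted p = 0.135). With the library number as a block it passed (log2 change -0.87, adjusted p = 0.0150). The contrasts within sets called it lower in both. Libraries 1 and 2 gave -1.19 ± 0.20 (adjusted p = 0.000178) and libraries 3 to 5 gave -0.68 ± 0.14 (adjusted p = 0.00265) as log2 changes. These changes differed by -0.51 ± 0.24, which did not pass (adjusted p = 0.103). With a library left out that difference ran from -0.71 to -0.27, and its side of the threshold was not the same in all 10 such fits. Of all genes tested, 7.97% were called lower in both sets, as Klf6 and Klf4 were.

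The 250 bases before the start site are shown for Klf6 and Klf4, which were lower in both sets, and for Klf13, which was higher in libraries 1 and 2. They were taken from RefSeq on GRCm38.p6, in which 5 of the 6 genes (all but Klf10) matched by symbol. Capitals mark 3 motifs searched on both strands: the CACCC box (CACCC), the GC box (GGGCGG) and the CCAAT box (CCAAT), which may share bases where they lie side by side. The windows are chr13:5861239-5861488 on the plus strand for Klf6, chr4:55532476-55532725 on the minus strand for Klf4 and chr7:63938916-63939165 on the minus strand for Klf13.
Klf6: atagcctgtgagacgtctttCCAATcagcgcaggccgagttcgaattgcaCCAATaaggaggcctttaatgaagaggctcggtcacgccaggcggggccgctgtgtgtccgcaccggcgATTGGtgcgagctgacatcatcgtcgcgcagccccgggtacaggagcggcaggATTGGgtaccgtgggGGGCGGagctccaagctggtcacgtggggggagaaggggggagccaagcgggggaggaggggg
Klf4: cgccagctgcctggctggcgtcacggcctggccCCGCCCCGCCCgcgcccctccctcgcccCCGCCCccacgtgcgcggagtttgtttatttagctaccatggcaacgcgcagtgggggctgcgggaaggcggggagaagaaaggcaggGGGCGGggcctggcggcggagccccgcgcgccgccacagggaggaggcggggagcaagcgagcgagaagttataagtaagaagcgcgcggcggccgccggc
Klf13: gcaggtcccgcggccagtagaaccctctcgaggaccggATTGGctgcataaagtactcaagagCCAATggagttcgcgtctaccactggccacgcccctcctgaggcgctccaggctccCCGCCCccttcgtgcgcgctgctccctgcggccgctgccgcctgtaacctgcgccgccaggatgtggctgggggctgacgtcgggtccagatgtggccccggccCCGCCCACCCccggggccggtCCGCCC

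The windows of Klf6 and Klf4 differed in these letters. Klf6 had 4 CCAAT boxes and 1 GC box, Klf4 had 4 GC boxes and no CCAAT box, and neither held CACCC. Klf13 had 2 CCAAT boxes, 3 GC boxes and 1 CACCC box. Both Klf6 and Klf4 held 1 match to CACGTG, the E box of the MYC and USF type, and Klf13, Klf3 and Klf7 held none. The printed Klf6 window shares its last 7 bases with an annotated exon of Klf6. The windows of Klf3 and Klf7, which are not printed, overlap exons over up to 250 and 102 bases and had 5 and 3 CACCC boxes. Among 32536 windows of the same length, 33.8% held CCAAT, 33.0% GGGCGG, 52.1% CACCC and 6.04% CACGTG. These shares were not matched for base content. G and C made up 64.8% of the Klf6 window, 74.0% of Klf4, 71.6% of Klf13, 78.4% of Klf3 and 59.2% of Klf7. The median over all windows was 52.4%. The core of the antioxidant response element that NRF2 binds (TGACNNNGC, in 10.2% of windows) had 1 match each in Klf6 and Klf3 and none in Klf4, Klf7 and Klf13. None of these 5 windows held the AP-1 site TGANTCA (6.73% of windows), the forkhead site GTAAACA (3.17%), the cyclic AMP response element TGACGTCA (1.56%) or a CArG box (1.48%). A match to letters is not a site in use.

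Klf7, the closest relative of KLF6 and studied mainly in neurons, did not follow Klf6. It was at 23.0, 29.8, 66.8, 74.2 and 66.0 CPM in NAC libraries 1 to 5, and at 27.9, 26.6, 53.8, 55.3 and 48.8 CPM in control libraries 1 to 5. NAC and control overlapped in libraries 1 and 2 and parted in libraries 3 to 5, where they did not overlap for 54.6% of all genes. It rose in libraries 3 to 5 (log2 change 0.39 ± 0.09, SE; edgeR adjusted p = 0.00637). The change of Klf7 was -0.04 ± 0.12 on the log2 scale in the other set (adjusted p = 0.774).

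Over all libraries Klf7 had a log2 change of 0.29 ± 0.35 (SE; edgeR adjusted p = 0.608). The difference of its NAC effect between the sets was -0.43 ± 0.15 (adjusted p = 0.0340). Without any of NAC 1, NAC 3, NAC 4, control 1, control 2 or control 5 that difference no longer passed (adjusted p 0.0522 to 0.116). Without NAC 1 it was -0.25.

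Klf3 encodes a repressor that works through CtBP and competes with activating family members at shared sites. It was at 17.2, 15.3, 21.5, 23.2 and 20.3 CPM in NAC libraries 1 to 5 and at 30.2, 30.1, 18.9, 19.4 and 19.7 CPM in control libraries 1 to 5. Control 1 and control 2 were the highest libraries and NAC 1 and NAC 2 the lowest, while libraries 3 to 5 of both groups lay between them. The groups did not overlap in either set, with NAC below control in libraries 1 and 2 and above it in libraries 3 to 5. Of all genes, 74.1% did not overlap in libraries 1 and 2 and 54.6% in libraries 3 to 5.

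Klf3 fell in libraries 1 and 2, with a log2 change of -0.89 ± 0.11 (SE; edgeR adjusted p = 1.09e-05). In libraries 3 to 5 the log2 change was 0.16 ± 0.09 and did not pass (adjusted p = 0.179). The 2 changes differed by -1.06 ± 0.14 (interaction adjusted p = 8.84e-05), the largest such difference among the 6 genes. Log2 changes of opposite sign with a called difference were found in 19.9% of all genes tested. Over all libraries the change was -0.28 ± 0.18 (adjusted p = 0.325). Among the CD4 T cell markers in libraries 1 and 2, Cd40lg was at 53.3 and 64.3 CPM in NAC and 97.7 and 108 CPM in control, and Foxp3 at 1.30 and 1.57 CPM in NAC and 4.52 and 4.25 CPM in control, both lower with NAC as Klf3 was. The other markers did not fall: Zbtb7b was at 63.7 and 72.0 CPM in NAC and 55.8 and 66.1 CPM in control. Cd4 was at 486 and 521 CPM in NAC, above 467 and 465 CPM in control. The sum of the 4 markers is given above. The part of these markers in the Klf3 values was not tested.

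Klf13, also known as RFLAT-1, was identified in human T cells as an activator of the chemokine gene CCL5 late after activation. It was at 88.7, 110.0, 137, 151 and 133 CPM in NAC libraries 1 to 5 and at 71.2, 63.9, 125, 123 and 130.3 CPM in control libraries 1 to 5. NAC lay above control within each set. Libraries 1 and 2 lay below libraries 3 to 5 by log2 differences of -0.50 in NAC and -0.90 in control. With NAC, Klf13 rose in libraries 1 and 2 (log2 change 0.56 ± 0.10, SE, edgeR adjusted p = 0.000416). NAC and control did not overlap for 74.1% of all genes there and for 54.6% in libraries 3 to 5.

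In libraries 3 to 5 the log2 change of Klf13 was 0.15 ± 0.08 (SE; edgeR adjusted p = 0.171), and over all libraries it was 0.27 ± 0.22 (adjusted p = 0.450). Fitted to libraries 3 to 5 alone, Klf13 passed (log2 change 0.15, adjusted p = 0.00324, and with the library number as a block 0.00431). The difference of its NAC effect between the sets was 0.40 ± 0.13 (adjusted p = 0.0249), in the opposite direction to that of the 4 other called genes. It did not pass without NAC 3, NAC 5, control 2, control 3 or control 5 (adjusted p 0.0502 to 0.117).

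Klf10, the TGF-beta inducible early gene, encodes a repressor of Smad7 that in mouse regulatory T cells acts on Foxp3. It was at 6.79, 9.08, 16.6, 16.6 and 18.3 CPM in NAC libraries 1 to 5 and at 9.84, 10.1, 14.3, 16.5 and 12.5 CPM in control libraries 1 to 5. NAC lay below control in libraries 1 and 2 and above it in libraries 3 to 5, by a narrow margin in both. Groups that did not overlap were found for 74.1% and 54.6% of all genes in these sets. The log2 changes were -0.33 ± 0.17 in libraries 1 and 2 (SE; edgeR adjusted p = 0.111) against 0.25 ± 0.13 for libraries 3 to 5 (adjusted p = 0.155).

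The difference of the Klf10 changes between the sets was -0.58 ± 0.21 (edgeR adjusted p = 0.0420), and over all libraries the log2 change was 0.09 ± 0.28 (adjusted p = 0.852). The difference between the sets no longer passed when any library other than NAC 2 or control 4 was left out (adjusted p 0.0621 to 0.143), and without NAC 1 it was -0.38. A fit to libraries 3 to 5 alone called Klf10 (log2 change 0.25, adjusted p = 0.0424; with the library number as a block 0.0473). In libraries 1 and 2 it passed only without NAC 2, the higher of the 2 NAC libraries there (log2 change -0.55, adjusted p = 0.0126).

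**Figure D2:**
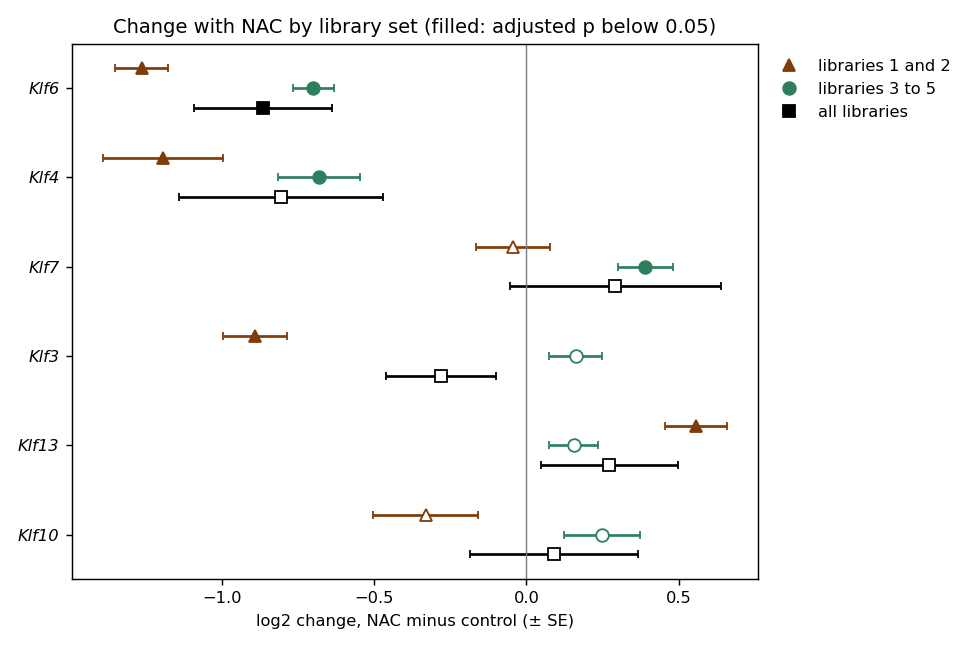
Log2 change of each gene, NAC minus control (x axis, with the SE), in libraries 1 and 2, in libraries 3 to 5 and over all libraries, filled where the adjusted p was below 0.05. Klf6 and Klf4 lie left of 0 in both sets, and Klf3 lies at -0.89 in libraries 1 and 2 and at 0.16 in libraries 3 to 5.

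The sets differed in these genes also within a group, given here without a test because the sets were recognised in these data. In NAC libraries all 6 genes were lower in libraries 1 and 2 than in libraries 3 to 5, with log2 differences from -1.38 for Klf7 to -0.41 for Klf3. In control libraries 5 of the 6 were lower in libraries 1 and 2, from -0.95 for Klf7 to -0.40 for Klf6, and Klf3 was higher there by 0.64. The summed CD4 T cell markers moved with the sets in both groups, and their part in these differences was not tested.

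Levels of the genes were compared with each other only per gene length, on the FPKM scale of the deposited table. Klf6 had the highest level of the 6 in every library and Klf13 the second. Within libraries 1 and 2 Klf6 averaged 21.3 FPKM with NAC and 50.1 FPKM in control, and Klf13 averaged 13.5 FPKM with NAC and 8.99 FPKM in control. In libraries 3 to 5 Klf6 averaged 40.8 FPKM with NAC and 64.4 FPKM in control, and Klf13 averaged 18.8 FPKM with NAC and 16.4 FPKM in control. The ratio of Klf6 to Klf13 within a library was 1.59 and 1.57 in NAC 1 and NAC 2 and at most 2.33 in NAC 3 to 5. In control it was 5.55 and 5.60 in libraries 1 and 2 and at least 3.76 in libraries 3 to 5, so every control library had a higher ratio than every NAC library. Klf6 made up 49.7% to 53.7% of the summed FPKM of the 6 genes with NAC and 66.1% to 71.1% in control.

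Klf7 came next in each group and set, and the order of the 3 lowest genes changed. With NAC, Klf10 followed Klf7, with 1.94 FPKM in libraries 1 and 2 and 4.13 FPKM in libraries 3 to 5, and Klf4 was below it, with 1.30 and 3.18 FPKM. In control, Klf4 followed Klf7, with 2.92 FPKM in libraries 1 and 2 and 4.97 FPKM in libraries 3 to 5, and Klf10 was below it, with 2.39 and 3.38 FPKM. Neighbours in the order overlapped between libraries for Klf3 and Klf4 with NAC in libraries 1 and 2, and for Klf7 and Klf4 and for Klf4 and Klf3 in control in libraries 1 and 2. The other neighbours did not overlap. Klf3 was the lowest in libraries 3 to 5, at 1.94 FPKM with NAC and 1.68 FPKM in control.

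**Figure D3:**
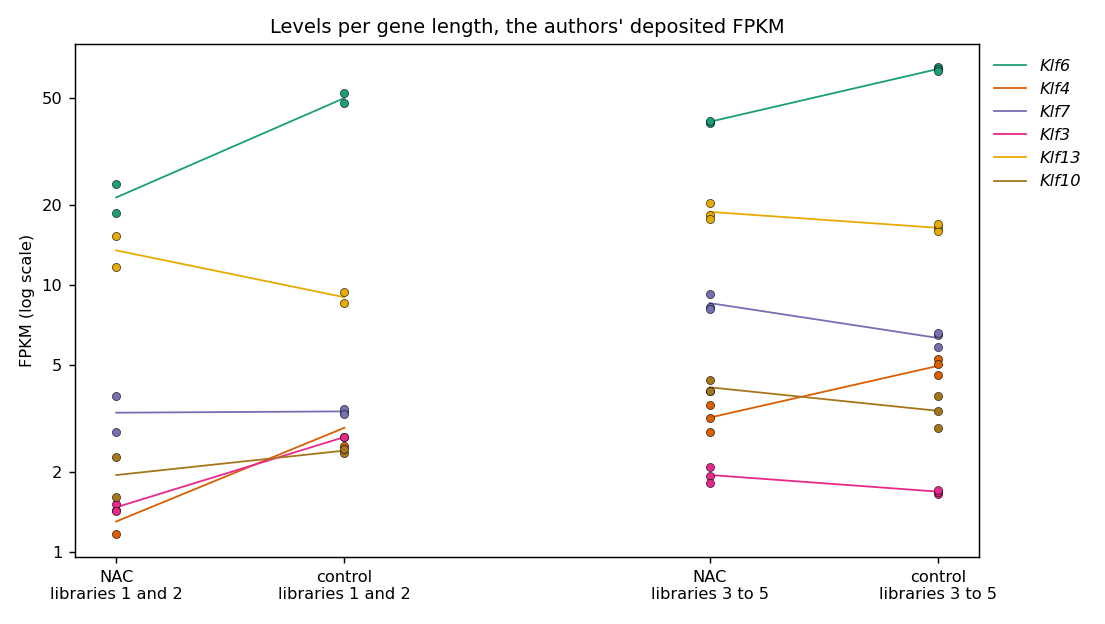
The authors' FPKM of each gene (y axis, log scale) in every library, with lines joining the NAC and control means of a library set. Klf6 and Klf13 are closer together in the NAC libraries than in the control libraries, and Klf10 lies above Klf4 with NAC and below it in control in libraries 3 to 5.

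In GENCODE M21 on GRCm38 the genes lie at chr13:5861482-5870394 (Klf6), chr4:55527143-55532466 (Klf4), chr1:64029447-64122282 (Klf7), chr5:64803388-64832901 (Klf3), chr7:63886351-63938915 (Klf13) and chr15:38291463-38300706 (Klf10). The start and end in the deposited table differed from these for 5 of the 6 genes, so the build of the table's own positions is not settled. Their identifiers in the table are ENSMUSG00000000078 (Klf6), ENSMUSG00000003032 (Klf4), ENSMUSG00000025959 (Klf7), ENSMUSG00000029178 (Klf3), ENSMUSG00000052040 (Klf13) and ENSMUSG00000037465 (Klf10). Klf3, Klf7 and Klf13 are overlapped by annotated genes on the opposite strand, and Klf3 and Klf7 also by genes on their own strand, C230096K16Rik and Mir6899. Strand use in the counting is not given in the sources used here, and strand would not part reads of genes on the same strand, so part of the reads of Klf3, Klf7 and Klf13 could come from those genes and their values are uncertain. Klf6, Klf4 and Klf10 are overlapped by none.

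Other genes followed the same pattern over the 10 libraries, named by the highest Pearson r of log2 CPM among 8612 genes with a mean of at least 10 CPM. For Klf6 these were Rtel1, Flna and Dek (r = 0.995, 0.991 and 0.990), and for Klf4 Idi2, Bhlhe40 and Slc20a1 (r = 0.988, 0.987 and 0.984). For Klf7 they were Bcl2, Grap2 and B4galt1 (r = 0.994, 0.994 and 0.992), for Klf3 Hsp90b1, Slc29a1 and Etaa1 (r = 0.977, 0.968 and 0.966), for Klf13 Ctso, Iqsec1 and Ngly1 (r = 0.987, 0.986 and 0.985) and for Klf10 Vgll4, Slc30a9 and Gtf2i (r = 0.991, 0.986 and 0.985). With 10 libraries in 2 sets and 2 groups, many genes reach such values, and they share depth and library set.

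Of 20 other genes of the KLF and SP families, 10 had enough reads to be tested, and 1 of these passed over all libraries (11.6% of all genes). The counts were 5 of 10 in libraries 1 and 2 (2 higher, 3 lower), beside 60.5% of all genes, and 3 of 10 in libraries 3 to 5 (2 higher, 1 lower), beside 29.0%. Klf16, which encodes a repressor of the Sin3-binding group, fell to 32.9 ± 2.51 CPM with NAC, against 42.1 ± 3.31 CPM in control (SD, n = 5 each; log2 change -0.36 ± 0.09, SE; edgeR adjusted p = 0.0279). Klf16 was called lower in both sets, where libraries 1 and 2 gave a log2 change of -0.40 (adjusted p = 0.00240) and libraries 3 to 5 one of -0.32 (adjusted p = 0.00785). Of all genes tested, 7.97% were called lower in both. Klf16 was picked by its call over these same libraries, so the set calls are not separate support. The all-library call ended without any library other than NAC 1, control 3 or control 5 (adjusted p 0.0519 to 0.0695). The median log2 change of the 10 genes was 0.13, beside 0.012 over all genes tested. Klf2 was at 6.17 ± 2.95 CPM with NAC and 3.58 ± 1.04 CPM in control and did not pass (log2 change 0.78 ± 0.36, adjusted p = 0.176). Klf2 rose by 0.98 on the log2 scale in libraries 3 to 5 (adjusted p = 0.00129) and had a change of 0.17 in libraries 1 and 2 (adjusted p = 0.587). Klf12, which encodes another CtBP-recruiting repressor, was at 0.850 ± 0.254 CPM with NAC and 0.423 ± 0.156 CPM in control over all libraries (adjusted p = 0.0840), and is named here after its value was seen. It passed with a term for the library set (log2 change 1.03, adjusted p = 0.0364). Klf12 rose in libraries 1 and 2 (log2 change 1.81, adjusted p = 0.0101), though not without NAC 2 (1.29, adjusted p = 0.161) or control 1 (1.62, adjusted p = 0.0651), and had a change of 0.58 in libraries 3 to 5 (adjusted p = 0.292).

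**Figure D4:**
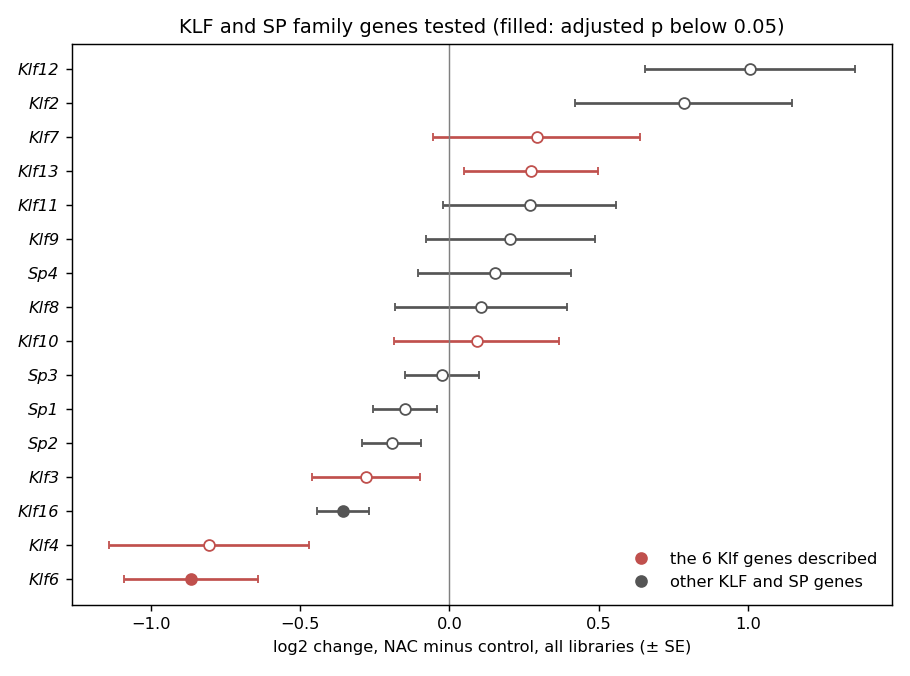
Log2 change, NAC minus control, over all libraries (x axis, with the SE) of the 16 KLF and SP family genes tested, in red for the 6 genes described and in grey for the 10 others, filled where the adjusted p was below 0.05. Klf6 at -0.87 and Klf16 at -0.36 are the filled points.

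None of the 18 cofactor genes of the family passed over all libraries in edgeR's test, beside 11.6% of all genes. An unadjusted p below 0.05 was found for 2 of the 18. The 11.6% is a share of adjusted calls and is no measure for that count. Limma-voom also called 0 of them, where it called 1273 of all genes. DESeq2's Wald test called 2 of them, where it called 2271 of all genes. The list held CtBP and Sin3 genes, histone deacetylases and acetyltransferases, nuclear corepressors and ubiquitin ligases. Its log2 changes ran from -0.31 to 0.24, with a median of -0.13. Of the 18, 8 fell and 3 rose in libraries 1 and 2, where 28.3% of all genes fell and 32.2% rose. In libraries 3 to 5 only Hdac1, a histone deacetylase gene, passed, beside 29.0% of all genes. It fell by 0.30 on the log2 scale (edgeR adjusted p = 0.00142). Over all libraries Hdac1 was at 241 ± 48.4 CPM with NAC and 271 ± 22.6 CPM in control (SD, n = 5 each; edgeR adjusted p = 0.426). The nuclear corepressor gene Ncor1 was at 271 ± 47.5 CPM with NAC and 299 ± 43.9 CPM in control over all libraries (SD, n = 5 each; edgeR adjusted p = 0.549). Ncor1 fell in libraries 1 and 2 (log2 change -0.57, adjusted p = 0.00176), where the change was -0.31 without NAC 1 and -0.87 without NAC 2. For libraries 3 to 5 its change was 0.15 (adjusted p = 0.309), which passed in a fit to these libraries alone (adjusted p = 0.000385; with the library number as a block 0.000707) and without NAC 1 or NAC 2 (adjusted p = 0.000921 and 0.00089).

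Among 22 genes placed upstream or downstream of Kruppel-like factors or known as genes of T cell quiescence, 4 rose, 1 fell and 17 did not pass over all libraries, where 6.69% of all genes rose and 4.88% fell. The counts were 9 higher and 5 lower in libraries 1 and 2 and 7 higher and 5 lower in libraries 3 to 5, beside 60.5% and 29.0% of all genes called in these sets. The genes that rose over all libraries were S1pr1 (log2 change 0.78, edgeR adjusted p = 0.0192), Il7r (0.85, adjusted p = 0.0192), Itgb7 (0.71, adjusted p = 0.0183) and Tcf7 (0.65, adjusted p = 0.00940). They encode a receptor for exit from lymphoid tissue, the interleukin 7 receptor, a gut homing integrin chain and the factor TCF1, found in naive T cells. Bcl2l1, the gene of the survival protein BCL-xL, fell to 223 ± 14.7 CPM with NAC, against 302 ± 11.3 CPM in control (SD, n = 5 each; adjusted p = 0.00698). Each of these 5 genes was called in the same direction in both sets, Il7r with log2 changes of 1.49 (libraries 1 and 2) against 0.48 (libraries 3 to 5), Bcl2l1 with -0.46 against -0.43. They were picked by a test over all libraries, which include both sets, so these calls are not separate support. Of all genes tested, 7.97% were called lower in both sets, and no such share was taken for higher. The median log2 change of the 22 genes over all libraries was 0.09, beside 0.012 over all genes tested.

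Genes with a known tie to 1 or 2 members, named after their values were seen, were as follows, and any link of their values to those of the members was not tested. Ccl5, the target of human KLF13, was at 4.48 ± 1.93 CPM with NAC and 8.48 ± 5.07 CPM in control (SD, n = 5 each; edgeR adjusted p = 0.235), and with the library number as a block it passed (log2 change -0.79, adjusted p = 0.0269). It fell in libraries 3 to 5 (log2 change -1.05, adjusted p = 4.96e-05) and did not pass in libraries 1 and 2 (-0.30, adjusted p = 0.237). Klf13 rose in libraries 1 and 2. In libraries 3 to 5 Klf13 did not pass in the model of both sets but passed in a fit to these libraries alone. Lgals3, a gene that KLF3 represses in the mouse, fell in both sets, with log2 changes of -0.88 (adjusted p = 0.000103) in libraries 1 and 2 and -0.80 (adjusted p = 5.89e-05) in libraries 3 to 5. Cdkn1a, a target of KLF6 and KLF4, fell by 0.70 on the log2 scale in libraries 3 to 5 (adjusted p = 2.48e-06), while libraries 1 and 2 gave 0.04 (adjusted p = 0.641). Smad7, which KLF10 represses, had log2 changes of -0.16 and -0.18 in the sets and passed in neither (edgeR adjusted p = 0.345 and 0.223). Foxp3, on which KLF10 acts, fell in libraries 1 and 2 (log2 change -1.61, adjusted p = 0.00060). It did not pass in libraries 3 to 5 (-0.03, adjusted p = 0.957), and was at no more than 4.52 CPM in any library. Elf4, upstream of Klf4, had log2 changes of 0.04 and 0.24 in the sets and passed in neither (adjusted p = 0.818 and 0.136).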

How the data were processed

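Bulk RNA sequencing of 10 libraries was deposited as 1 table with a read count and an FPKM value per gene and library, per the file headers. The deposited read counts are whole numbers and went into the tests unchanged. The deposited FPKM values are reads per length and per library total: recomputed so from genes with 50 or more reads, they deviated by at most 0.0012%. They served only to compare levels between genes. Libraries were made with a SMARTER mRNA kit, per the labels' protocols. The submitters' processing notes name GRCm38 and mm10, and which aligner, counting tool and annotation were used is not given in the sources used here. Groups came from the agent label and replicate numbers from the titles.

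The main test was edgeR 4.0.16 in R 4.3.3 (filterByExpr, TMM, robust quasi-likelihood F test, no covariate), with Benjamini-Hochberg adjustment over 11403 genes and a threshold of 0.05, two-sided. Log2 changes are NAC minus control, and SE was derived from the change and its F statistic (absolute change over the root of F). Within-set changes and their difference come from contrasts of a single model whose 4 coefficients are the group and set combinations. The common coefficient of variation was 26.6% without sets and 7.43% with them. CPM values are TMM-normalized, and log2 CPM carries a prior count of 2. The fits were run on simulated libraries drawn with a single spread for all genes and no general shift between the library sets. That run does not show how the fits behave with sets as far apart as these.

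Same-numbered libraries deviated together (r across genes 0.48 to 0.60, 0.47 to 0.58 with differing numbers within a set, -0.57 to -0.45 across sets). Every pair passed 0.1, so a block by library number was run as an alternative, although only 3 of 10 libraries matched their own number best. The main test and the contrasts within sets carried no block. With r so close to that of differing numbers within a set, these values do not tell pairs from sets.

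Members, lists and tests were chosen with earlier results of these data known. All 6 members were named, with the 3 genes most like each by Pearson r, and from each list the called genes or else the 2 most abundant. Alternatives used DESeq2 1.42.0, limma 3.58.1, other scalings and filters, a set term, a block, separate fits and each library left out.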

Additional observations from a re-analysis of the deposited data

Results flagged for a closer look

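For 5 of the 6 genes the effect of NAC differed between libraries 1 and 2 and libraries 3 to 5 by the interaction test (41.9% of all genes tested did). The difference of log2 changes, libraries 1 and 2 minus libraries 3 to 5, was -1.06 for Klf3, -0.56 for Klf6, -0.58 for Klf10, -0.43 for Klf7 and 0.40 for Klf13. For 3 of them, and 19.9% of all genes, a called difference went with changes of opposite sign, given for libraries 1 and 2 and then 3 to 5: -0.89 and 0.16 for Klf3, -0.33 and 0.25 for Klf10, and -0.04 and 0.39 for Klf7. The differences of Klf3 and Klf6 passed under each of the 13 alternatives run, and those of Klf7, Klf10 and Klf13 did not pass under 6, 8 and 6 of them.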

How the results depend on the processing

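Of 372 alternative values of the 6 genes, 334 kept direction and side of the threshold, 25 lost the call, 11 gained it and 2 changed sign; the cause was not tested. The sign changed for Klf7 in libraries 1 and 2 without NAC 1 (0.14, with a range down to -0.24) and for Klf10 over all libraries without NAC 5 (-0.042, with a range up to 0.26), neither of them called. Of 613 values of other named genes 3 changed sign, all in libraries 1 and 2 and none called: Cdkn1a (-0.012 with no filter on low counts, -0.018 without NAC 2, range up to 0.097) and Smad7 (0.0012 without NAC 2, range down to -0.33).

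Over all libraries 1319 genes were called. DESeq2's Wald test called 2271, the replicate block 2254 and the set covariate 4155, and leaving out 1 library gave 631 to 1405. The members called numbered 2 with the block (Klf6 and Klf4) and 3 with the set covariate (Klf13 as well), against 1. With a library left out 0 to 1 members were called. There 1 to 2 had an unadjusted p below 0.05, a count not set beside all genes. In libraries 3 to 5, 3312 genes and 3 members were called, against 5557 and 5 in a separate fit, 5407 and 5 with the replicate block there, and 2189 to 5373 and 3 to 4 with a library left out. In libraries 1 and 2 leaving out a library gave 5641 to 7623 genes and 4 to 5 members. For the difference between the sets it gave 3625 to 6562 genes and 2 to 5 members, and library size alone gave 4 members. Where leaving out a library left 1 in an arm, that library is assumed to vary like the others. The block changed no call of the 6 genes beyond those given, and no block was fitted for the difference between the sets. In Klf4, 55 reads in NAC 1 limit precision.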
